A study of Mus musculus with 6 samples.

Results

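Naive and stem-like T cell factors are the transcription factors whose genes are most active in T cells that have not yet taken on effector functions, or that keep the ability to renew themselves. The set studied here was fixed by gene symbol and holds 9 genes: Tcf7, Lef1, Bach2, Satb1, Foxp1, Foxo1, Foxo3, Bcl6 and Myb. All 9 were among the 19390 gene symbols of the count table and among the 12810 genes with enough counts to be tested. RNA was sequenced from splenic γδ T cells of mice aged 6 weeks, sorted by flow cytometry; these lymphocytes recognise antigen through a receptor of paired γ and δ chains. The 3 KO-labelled libraries were taken, from the design text, to be from USF3-f/f; CD2-cre mice, in which floxed Usf3 alleles meet a Cre recombinase driven by a CD2 promoter in lymphoid cells. The 3 WT-labelled libraries were taken to be from USF3-f/f mice without the transgene. Both groups therefore carry the floxed alleles, and the comparison holds the transgene and the deletion together. The labels do not say whether libraries of a label came from separate animals or from pools, so p-values measure the spread between these libraries, which may be technical.

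TCF1 (encoded by Tcf7) and LEF1 are DNA-binding factors with a high-mobility-group box that act with β-catenin as activators and with Groucho/TLE proteins as repressors. They keep naive and stem-like T cells in that state and act early in thymic T cell development. FOXO1 and FOXO3 are forkhead factors that growth-factor and antigen-receptor signals, through the kinase AKT, send out of the nucleus. In resting T cells FOXO1 activates homing and survival genes such as Klf2 and Il7r. BACH2 and BCL6 are repressors that hold back effector genes, among them Prdm1, which encodes BLIMP-1. SATB1 organises chromatin loops, FOXP1 maintains quiescence, and MYB supports progenitors and stem-like memory cells.

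Depth was even, with 34644862 to 35806402 counts per library. Usf3 itself was at 72.0, 65.9 and 67.5 CPM in KO replicates 1 to 3 and 70.2, 72.7 and 73.8 CPM in WT replicates 1 to 3, where CPM is the usual depth-scaled unit, here with TMM normalization. This difference did not pass the test (edgeR adjusted p = 0.261). The labels do not name the floxed exons, so a whole-gene count cannot check them, and the libraries are called KO-labelled and WT-labelled. The CD3 chain genes showed T cells but could not tell γδ from αβ T cells. Of 12 listed γδ T cell markers 7 had a row. The γδ receptor constant genes Trdc, Trgc1, Trgc2, Trgc3 and Trgc4 had no row under these symbols. Nor had the αβ receptor constant genes Trac, Trbc1 and Trbc2, so constant genes could not tell γδ from αβ T cells either. The 7 γδ T cell markers summed to 933 to 970.3 CPM in KO-labelled and 1051 to 1059 CPM in WT-labelled libraries, with 6 lower. Most of this sum came from the CD3 chain genes. Among the other markers Scart2 averaged 4.22 CPM in KO-labelled and 16.4 CPM in WT-labelled libraries (edgeR adjusted p = 4.10e-12). Sox13 averaged 3.23 and 4.36 CPM in the same order and was not called (edgeR adjusted p = 0.102). The B cell genes Ms4a1, Cd79a and Pax5, of a lineage that also uses BACH2, BCL6 and FOXP1, had between 2 and 13 counts in every library. Cd79b, a B cell receptor subunit gene and the largest part of the sum, had 158 to 226 counts in KO-labelled and 193 to 204 counts in WT-labelled libraries and was not called. Blk, a kinase gene also listed among the γδ T cell markers, fell, with 43 to 53 counts in KO-labelled and 83 to 133 counts in WT-labelled libraries (log2 fold change -1.15, edgeR adjusted p = 0.00133). The 10 B cell markers with a row summed to 7.04 to 9.41 CPM in KO-labelled and 9.63 to 10.6 CPM in WT-labelled libraries.

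Of the 9 factors, 6 changed in KO-labelled cells, 3 higher and 3 lower. Lef1, Foxo3 and Tcf7 fell, with changes of -37.8%, -28.4% and -19.8%. Satb1, Bach2 and Foxp1 rose, by 21.7%, 17.0% and 10.04%. Foxo1, Myb and Bcl6 did not pass the test, with differences of 6.68%, 7.90% and 8.68%. A change was called at a Benjamini-Hochberg adjusted p under 0.05 in edgeR's quasi-likelihood fit over all tested genes, which called 17.3% of them, with 7.23% up and 10.1% down. The 3 KO-labelled libraries lay wholly above the 3 WT-labelled ones in 4 of the factors and wholly below in 3, so 7 of 9 did not overlap, beside 32.1% of all tested genes. In size, ignoring sign, the 9 log2 fold changes had a median of 0.23, beside 0.10 over all tested genes and 0.24 over all called ones. The factors were picked with results of these data known, so their share of calls is a description. In bulk RNA, fewer cells of a type and less RNA per cell cannot be told apart.

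**Figure D1:**
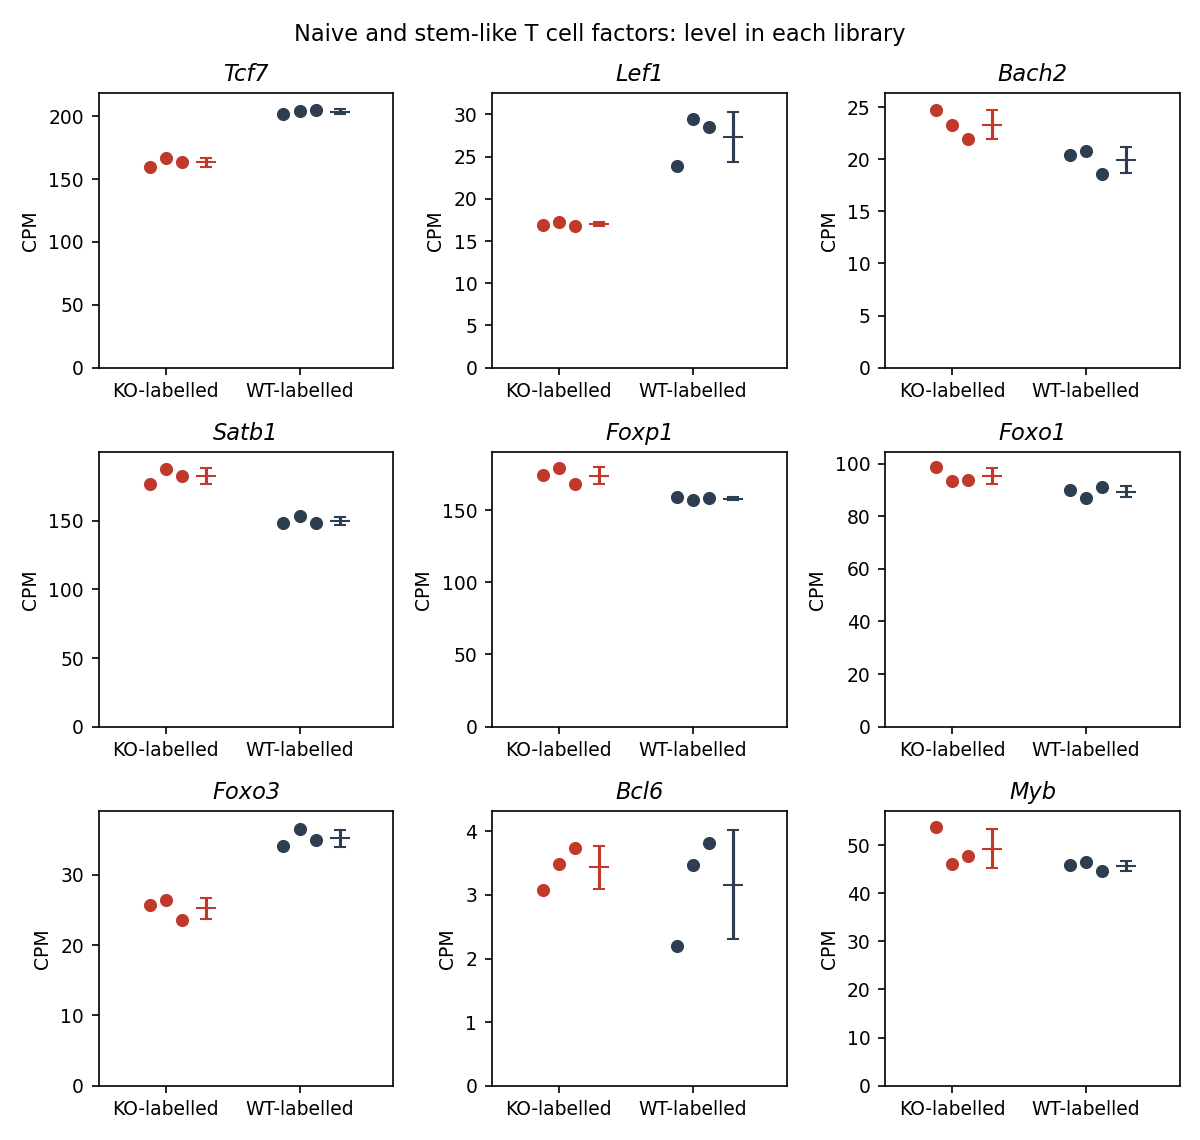
Level of each of the 9 factors in CPM (y axis from 0), with the 3 KO-labelled libraries in red on the left and the 3 WT-labelled ones in dark blue on the right of each panel; points are replicates 1 to 3, and the bar beside them is the mean with its SD. Tcf7, Lef1 and Foxo3 are lower in all KO-labelled libraries, Satb1, Bach2, Foxp1 and Foxo1 higher in all, and Bcl6 and Myb overlap.

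Tcf7 stood at 159.8, 167 and 163 CPM in KO replicates 1 to 3, against 202, 204 and 205 CPM in WT replicates 1 to 3. The groups were far apart for their spread, with means of 163 ± 3.48 CPM in KO-labelled and 204 ± 1.85 CPM in WT-labelled libraries (SD, n = 3 each). The change was -19.8%, with a 95% interval from -23.1% to -16.4% (edgeR adjusted p = 1.90e-08). Its sister gene Lef1 had 17.0, 17.2 and 16.8 CPM in KO replicates 1 to 3, against 23.9, 29.5 and 28.5 CPM in WT replicates 1 to 3. Here the WT-labelled libraries spread widely, with replicate 1 lowest, while the KO-labelled ones were almost equal: 17.0 ± 0.232 CPM in KO-labelled and 27.3 ± 2.95 CPM in WT-labelled libraries (SD, n = 3 each). The change of Lef1 was -37.8%, with a 95% interval from -44.2% to -30.6% (edgeR adjusted p = 4.18e-07), and only 5.11% of all tested genes had a larger absolute log2 fold change.

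The ratio of Lef1 to Tcf7 counts within a library, which does not depend on scaling between libraries, was 0.106, 0.103 and 0.103 in KO replicates 1 to 3 and 0.119, 0.144 and 0.139 in WT replicates 1 to 3. All KO-labelled ratios lay below all WT-labelled ones, a 0.779-fold ratio. The two-sided exact permutation test gave p = 0.1, the smallest that 3 libraries against 3 allow, and p = 0.167 adjusted over the 5 ratios compared.

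RefSeq's promoter table for the build GRCm38.p6 holds windows of 300 bases, from 250 before to 50 after an annotated start, for all 9 genes, 20 windows in all. They were searched on both strands for the E-box CACGTG, the motif bound by basic helix-loop-helix zipper proteins such as the USF family, for the FOXO motif GTAAACA and for the TCF/LEF motif CTTTGAT. Lef1 and Tcf7, the related pair that fell together, are shown because each has a window with a match, in capitals. The Tcf7 window is its downstream start at chr11:52282546-52282845 (minus strand), with a FOXO motif beginning 2 bases into the transcript. The Lef1 window is the most downstream of its 4 starts at chr3:131156044-131156343 (plus strand), with an E-box beginning 79 bases before the start.
Tcf7: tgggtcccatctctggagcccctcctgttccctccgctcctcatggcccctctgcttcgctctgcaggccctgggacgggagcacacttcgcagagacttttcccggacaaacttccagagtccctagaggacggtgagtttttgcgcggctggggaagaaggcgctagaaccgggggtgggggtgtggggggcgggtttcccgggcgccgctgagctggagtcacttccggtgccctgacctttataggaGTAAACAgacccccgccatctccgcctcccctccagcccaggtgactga
Lef1: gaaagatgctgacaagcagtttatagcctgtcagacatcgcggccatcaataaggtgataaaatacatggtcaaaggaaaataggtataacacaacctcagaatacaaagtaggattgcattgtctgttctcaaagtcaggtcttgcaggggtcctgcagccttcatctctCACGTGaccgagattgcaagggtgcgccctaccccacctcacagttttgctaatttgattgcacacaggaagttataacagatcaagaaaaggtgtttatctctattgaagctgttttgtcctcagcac
The E-box occurred in 2 of the 20 windows, and in 7.15% of all 32851 windows. The FOXO motif also occurred in 2 of the 20 windows, the Tcf7 window shown and the Myb window (not printed), and in 3.65% of all. The TCF/LEF motif occurred in 0 of the 20 windows and in 3.73% of all. Bcl6 and Myb, which also hold a match, did not pass the test, so a match does not set Lef1 and Tcf7 apart. These matches describe letters in short windows and show no binding.

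Among co-factors of TCF1 and LEF1 and genes of the β-catenin pathway, 7 of 19 tested were higher and 0 lower, and the median log2 value was 0.05. The co-repressor genes led. Tle1 averaged 26.5 ± 1.66 CPM in KO-labelled and 5.01 ± 0.795 CPM in WT-labelled libraries, Tle2 3.23 ± 0.519 and 0.531 ± 0.0751 CPM, and Tle3 223 ± 2.88 and 167 ± 3.28 CPM, in the same order (SD, n = 3 each). Of genes chosen after their values were seen, Ctnnb1, which encodes β-catenin, rose by 0.13 on the log2 scale, while Tle4 was at -0.04 and did not pass the test (edgeR adjusted p = 0.58). The count of higher genes was 4 in both filtered fits on log2 FPKM. Tle1, Tle2 and Jup, called higher from counts, had a mean under 1 FPKM and so were not tested in those fits.

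Of genes listed as targets of TCF1, LEF1 and β-catenin, 2 of 15 tested were higher and 5 lower, with a median of -0.22. Eomes, a T-box factor gene, rose by 0.70 ± 0.024 on the log2 scale (SE), to 499.8 ± 4.72 CPM in KO-labelled against 307 ± 4.03 CPM in WT-labelled libraries (SD, n = 3 each). The chemokine gene Xcl1 rose by 0.49 ± 0.029, and the growth regulator gene Myc was called lower, at -0.62 ± 0.028 (SE). Their edgeR adjusted p ran from 6.79e-16 for Eomes to 1.66e-11 for Xcl1. Axin2, a feedback inhibitor gene used as a readout of β-catenin activity and chosen after its value was seen, was at 5.50 ± 0.751 CPM in KO-labelled and 6.64 ± 0.884 CPM in WT-labelled libraries and did not pass (edgeR adjusted p = 0.212). The listed genes thus moved both ways while Tcf7 and Lef1 fell.

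The forkhead genes Foxo3 and Foxo1 differed from each other. Foxo3 had 25.7, 26.3 and 23.5 CPM in KO replicates 1 to 3, against 34.1, 36.5 and 34.9 CPM in WT replicates 1 to 3. The groups did not overlap, and the change of Foxo3 was -28.4%, with a 95% interval from -34.3% to -21.9% (edgeR adjusted p = 2.42e-06). Foxo1, the main FOXO factor of naive T cells, had 98.7, 93.4 and 93.9 CPM in KO replicates 1 to 3, against 89.9, 87.1 and 91.1 CPM in WT replicates 1 to 3. All KO-labelled values lay above all WT-labelled ones, but the nearest libraries were only 2.55% apart, and the difference of 6.68% (95% interval 1.00% to 12.7%) did not pass over all genes (edgeR adjusted p = 0.101). The ratio of Foxo3 to Foxo1 counts was 0.261, 0.282 and 0.251 in KO replicates 1 to 3 and 0.380, 0.419 and 0.384 in WT replicates 1 to 3. That is a 0.671-fold ratio with no overlap, at the smallest p of the two-sided exact permutation test (p = 0.1, adjusted p = 0.167 over the 5 ratios).

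Of 20 genes listed as FOXO targets, 9 fell and 1 rose, and the list's median on the log2 scale was -0.19. S1pr1, whose product guides lymphocytes out of lymphoid organs, averaged 6.11 ± 0.630 CPM in KO-labelled and 14.5 ± 0.409 CPM in WT-labelled libraries. Irs2, an adaptor gene of insulin signalling, averaged 36.6 ± 2.73 and 54.9 ± 1.41 CPM in the same order (SD, n = 3 each). Their edgeR adjusted p were 2.43e-09 and 2.04e-08. The single higher gene was Bcl2l11, which encodes the death-promoting protein BIM, at 152 ± 3.10 CPM in KO-labelled and 129.9 ± 1.94 CPM in WT-labelled libraries. It and the next genes were chosen after their values were seen. Klf2 and Il7r were called lower, at -0.84 and -0.29, and Ccr7, a homing receptor gene for lymph nodes, was at -0.12 and not called (edgeR adjusted p = 0.14).

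Genes that control FOXO activity moved little, with 6 of 23 lower, 2 higher and a median of -0.05. The catalytic subunit gene Pik3cd, which acts upstream of AKT, was at 672 ± 10.4 CPM in KO-labelled and 758 ± 1.87 CPM in WT-labelled libraries (SD, n = 3 each; edgeR adjusted p = 2.11e-06). Ywhab, a 14-3-3 gene whose product holds phosphorylated FOXO in the cytoplasm, was higher by 0.10 ± 0.026 on the log2 scale (SE; edgeR adjusted p = 0.00693), a call lost without KO replicate 1 or WT replicate 1 (adjusted p = 0.0527 and 0.0551). The number of lower genes was 3 without WT replicate 2. The number of higher genes was 1 without KO replicate 1 or without KO replicate 2, and 0 without WT replicate 1.

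**Figure D2:**
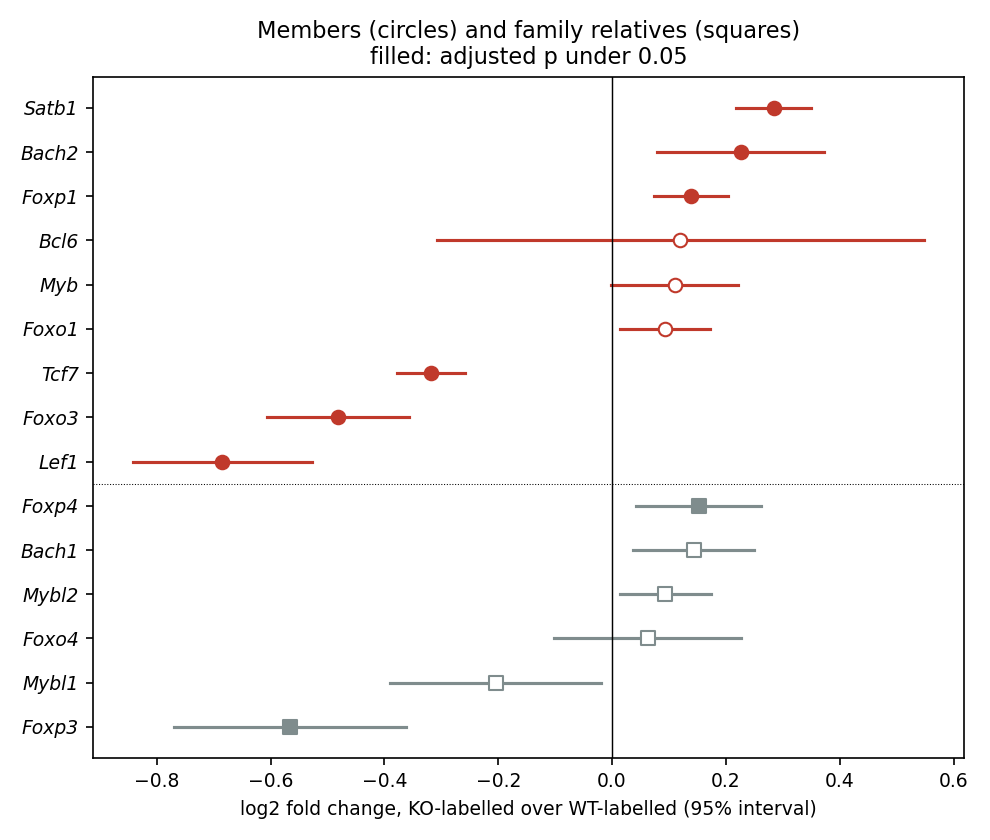
Log2 fold change of KO-labelled over WT-labelled libraries (x axis) with its 95% interval for the 9 factors (circles) and their 6 tested relatives (squares), filled where the adjusted p is under 0.05. Lef1 (-0.68), Foxo3 (-0.48) and Tcf7 (-0.32) are the lower factors, and Satb1 (0.28), Bach2 (0.23) and Foxp1 (0.14) the higher ones.

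Satb1, Foxp1 and Bach2 were higher in KO-labelled cells. Satb1 had 176, 188 and 183 CPM in KO replicates 1 to 3, against 148, 153 and 148 CPM in WT replicates 1 to 3. The nearest libraries of the groups were 15.2% apart, and Satb1 rose by 21.7%, with a 95% interval from 16.3% to 27.4% (edgeR adjusted p = 4.83e-07). Foxp1 had 174, 179 and 168 CPM in KO replicates 1 to 3, against 159, 157 and 158 CPM in WT replicates 1 to 3. It rose by 10.04%, with a 95% interval from 5.19% to 15.1% (edgeR adjusted p = 0.00280), and its WT-labelled values were nearly equal. In the 3 fits on log2 FPKM, Foxp1 was not called (limma-trend adjusted p = 0.101 with a pseudocount of 1, and 0.146 without a filter).

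Bach2 had 24.8, 23.3 and 21.9 CPM in KO replicates 1 to 3, against 20.4, 20.8 and 18.5 CPM in WT replicates 1 to 3. The groups did not overlap, with 5.28% between the nearest libraries, and the rise of 17.0% had a 95% interval from 5.62% to 29.5% (edgeR adjusted p = 0.0291). The call was lost without KO replicate 1, WT replicate 1 or WT replicate 3 (adjusted p = 0.152, 0.0588 and 0.146). The ratio of Bach2 to its relative Bach1, a repressor of haem and antioxidant genes, was 0.556, 0.524 and 0.498 in KO replicates 1 to 3 and 0.503, 0.552 and 0.441 in WT replicates 1 to 3. These ratios overlapped (two-sided exact permutation p = 0.6, adjusted p = 0.6 over the 5 ratios). Bach1 itself was at 44.3 ± 0.256 CPM in KO-labelled and 40.1 ± 2.16 CPM in WT-labelled libraries and did not pass (edgeR adjusted p = 0.0562). Bach1 was called higher in 5 of 18 alternatives, among them without WT replicate 3 and with upper-quartile or total-count scaling (adjusted p = 0.0393, 0.0376 and 0.0386). In GENCODE M21 the gene Bach2os lies antisense to 537 bases of Bach2 exons. It had at most 12 counts in a library, beside at least 652 for Bach2.

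Bcl6 and Myb did not pass the test. Bcl6, the repressor of follicular helper and memory T cells, had 3.07, 3.49 and 3.74 CPM in KO replicates 1 to 3 and 2.19, 3.48 and 3.81 CPM in WT replicates 1 to 3. The groups overlapped, WT replicate 1 was the lowest, and the 95% interval of the change ran from -19.2% to 46.2% (edgeR adjusted p = 0.761). The WT-labelled libraries varied by 27.1% (coefficient of variation), beside 9.49% from counting alone at 78 to 134 counts per library. Without WT replicate 1 the log2 fold change was -0.08, against 0.12 with all libraries. Myb had 53.8, 46.1 and 47.8 CPM in KO replicates 1 to 3 and 45.9, 46.5 and 44.5 CPM in WT replicates 1 to 3. KO replicate 1 stood above the other libraries, and the difference of 7.90% had a 95% interval from -0.171% to 16.6% (edgeR adjusted p = 0.186). Without KO replicate 1 the log2 fold change of Myb was 0.042, against 0.11 with all libraries. Bcl6 is shown because the window at its upstream start, chr16:23988803-23989102 (minus strand, RefSeq GRCm38.p6), holds the other E-box of the set, in capitals, beginning 60 bases before the start.
Bcl6: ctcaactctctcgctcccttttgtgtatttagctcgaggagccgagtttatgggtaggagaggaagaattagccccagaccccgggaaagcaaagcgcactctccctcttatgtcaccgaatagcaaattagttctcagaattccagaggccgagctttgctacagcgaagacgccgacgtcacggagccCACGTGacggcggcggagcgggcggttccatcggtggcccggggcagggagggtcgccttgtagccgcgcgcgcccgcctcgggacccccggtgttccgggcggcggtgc

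The ratio of Bcl6 to Prdm1, which repress each other, was 0.247, 0.309 and 0.368 in KO replicates 1 to 3 and 0.161, 0.204 and 0.261 in WT replicates 1 to 3. The ranges overlapped (two-sided exact permutation p = 0.2, adjusted p = 0.25 over the 5 ratios). Prdm1 alone was lower, at 11.3 ± 1.14 CPM in KO-labelled and 15.1 ± 1.79 CPM in WT-labelled libraries (SD, n = 3 each; edgeR adjusted p = 0.00396). The ratio of Tcf7 to Tbx21, the T-bet gene of type 1 effector cells, was 4.75, 4.92 and 5.19 in KO replicates 1 to 3 and 4.49, 4.39 and 4.17 in WT replicates 1 to 3. This ratio was higher in every KO-labelled library, 1.14-fold, while both genes fell, with Tbx21 at 33.0 ± 1.34 CPM in KO-labelled against 46.9 ± 2.16 CPM in WT-labelled libraries. The two-sided exact permutation test gave the smallest possible p = 0.1, with p = 0.167 adjusted over the 5 ratios.

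**Figure D3:**
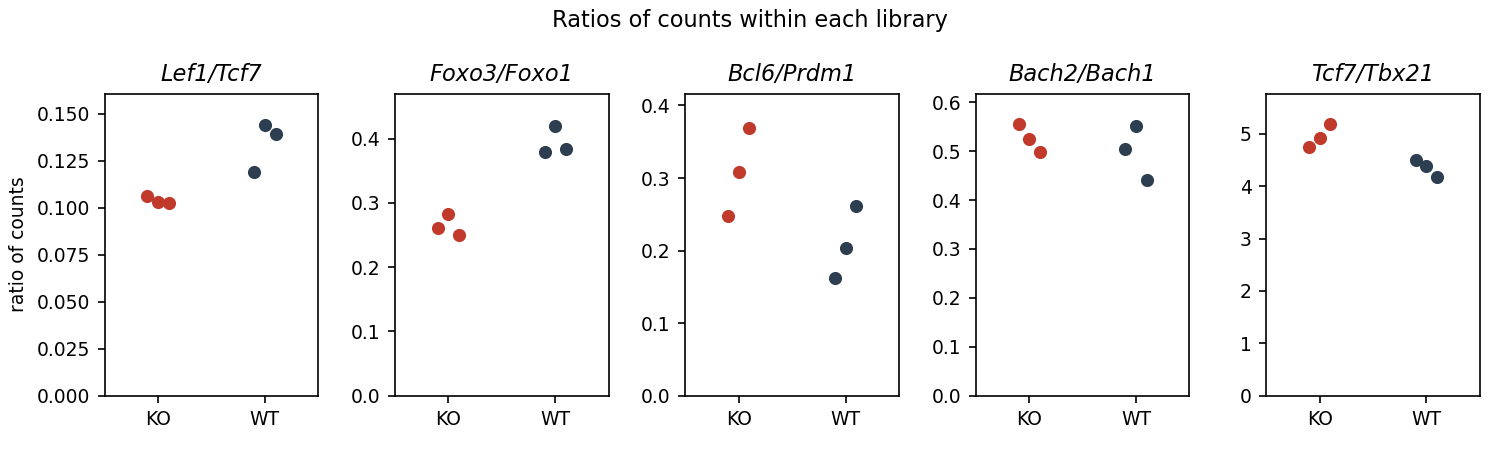
Ratio of the counts of 2 genes within each library (y axis from 0) for 5 gene pairs, with KO-labelled libraries in red on the left and WT-labelled ones in dark blue on the right; each point is 1 library, in the order of replicates 1 to 3. Lef1/Tcf7 and Foxo3/Foxo1 are lower and Tcf7/Tbx21 is higher in all 3 KO-labelled libraries, while Bcl6/Prdm1 and Bach2/Bach1 overlap.

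Genes listed as repressed by BCL6 or BACH2 moved both ways, with 7 of 20 tested lower, 4 higher and a median log2 value of -0.01. The AP-1 gene Fosl2 and the chemokine genes Ccl3 and Ccl4 were lower, at -0.46, -0.62 and -0.56 on the log2 scale (edgeR adjusted p = 1.65e-10, 1.77e-10 and 1.17e-09). Fosl2 was at 131 ± 1.22 CPM in KO-labelled and 179.7 ± 4.85 CPM in WT-labelled libraries, and Ccl3 at 44.2 ± 0.505 and 68.1 ± 0.940 CPM in the same order (SD, n = 3 each). The 4 higher genes, named after their values were seen, were Bhlhe41, Bcl2l1, Ifng and Id2. Their log2 fold changes were 2.11, 0.28, 0.25 and 0.13, with Bhlhe41 at only 14 to 26 counts in WT-labelled libraries. Of BACH2 partners and competitors in the small MAF and AP-1 families, 4 of 9 were lower and 0 higher, with Fosl2, Junb and Batf3 at -0.46, -0.24 and -0.93, while the small MAF gene Mafk stood at 156 CPM in both labels. Of 13 BCL6 co-repressor genes, 3 fell and 0 rose, so 23.1% were called, beside 17.3% of all tested genes. These were Tbl1xr1, Hdac4 and Hdac7, at -0.20, -0.17 and -0.14. The Hdac4 call was lost without KO replicate 1 or WT replicate 3 (edgeR adjusted p = 0.0699 and 0.0749), and the Hdac7 call without KO replicate 1 or WT replicate 2 (adjusted p = 0.0686 and 0.0975). Hdac4 and Hdac7 were also not called in the 3 fits on log2 FPKM, nor was Tbl1xr1 in the unfiltered one (limma-trend adjusted p = 0.0888). Without KO replicate 1 the count of lower co-repressor genes was 1, and without KO replicate 2 the count of higher ones was 1. Over all 18 alternatives the count ran from 0 to 3 for lower and from 0 to 2 for higher co-repressor genes.

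Genes listed as factors of effector differentiation were lower in 11 of 21 and higher in 4, with a median of -0.15. Zbtb32, a repressor gene of activated lymphocytes, averaged 57.2 ± 1.55 CPM in KO-labelled and 89.7 ± 3.29 CPM in WT-labelled libraries, and Rora, a nuclear receptor gene of type 17 cells, 26.6 ± 1.80 and 41.0 ± 1.93 CPM in the same order (SD, n = 3 each; edgeR adjusted p = 6.12e-11 and 4.13e-08). Eomes, described above, was the higher gene with the smallest p. The other higher ones, named after their values were seen, were Tox, Nfil3 and Id2, at 0.65, 0.42 and 0.13 on the log2 scale. The number of lower genes was 7 without WT replicate 2. Other regulators of quiescence and the naive state were lower in 6 of 25 and higher in 3, with a median of -0.04. Btg2, an antiproliferative gene, was at 44.7 ± 2.18 CPM in KO-labelled and 72.1 ± 3.41 CPM in WT-labelled libraries. The ETS factor gene Ets1 was at 499.6 ± 9.20 and 405 ± 7.13 CPM, and the ubiquitin ligase gene Peli1 at 125 ± 3.17 and 98.0 ± 0.898 CPM, in the same order (SD, n = 3 each; edgeR adjusted p for these 3 from 2.40e-10 to 5.42e-08).

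Marker genes of naive and stem-like T cells, tested in 24, were lower in 9 and higher in 4, with a median of -0.10. In this list 54.2% were called, beside 17.3% of all tested genes. The membrane protein gene Ms4a6b averaged 253 ± 3.61 CPM in KO-labelled and 332 ± 7.14 CPM in WT-labelled libraries. Igfbp4, an insulin-like growth factor binding protein gene, averaged 39.3 ± 0.814 and 63.5 ± 2.86 CPM, and the receptor gene Treml2 71.8 ± 2.07 and 105 ± 2.37 CPM, in the same order (SD, n = 3 each; edgeR adjusted p for these 3 from 1.31e-10 to 2.21e-10). The 4 higher markers, named after their values were seen, were Als2cl, Sidt1, Ramp1 and Rgs10. Their log2 fold changes were 1.14, 0.56, 0.52 and 0.38, so the list moved both ways.

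**Figure D4:**
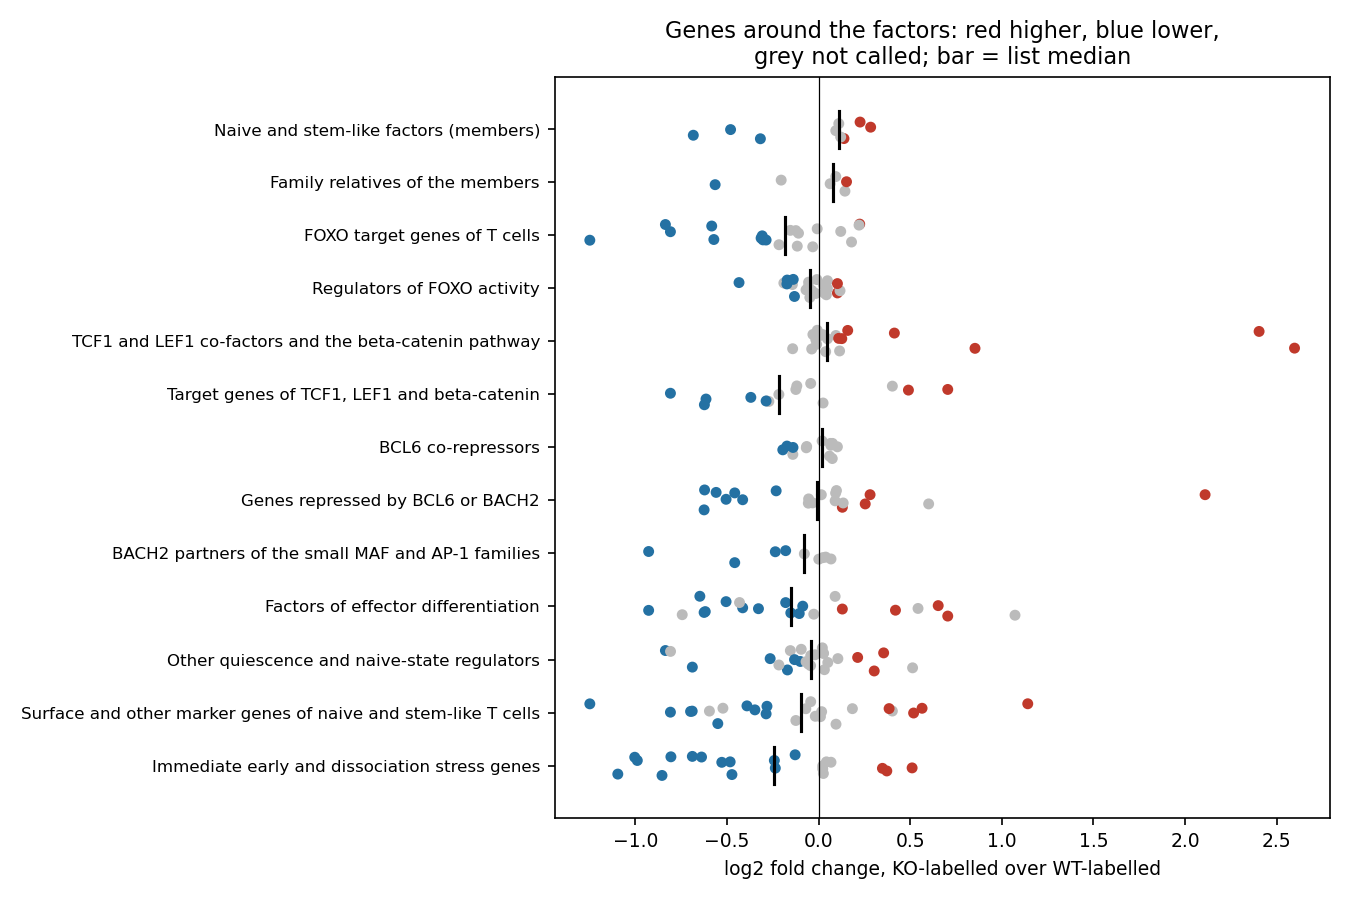
Log2 fold change of KO-labelled over WT-labelled libraries (x axis) for the 9 factors and 12 lists of genes around them; each point is a tested gene, red where called higher, blue where called lower and grey where not called, and the black bar is the list median. The FOXO target list has its median at -0.19 and the list of TCF1 and LEF1 co-factors at 0.05, with Tle1 and Tle2 far to the right.

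Of the 12 relatives of the factors, 10 had a row and 6 were tested. Foxp3, the regulatory T cell factor gene, was at 8.31 ± 0.388 CPM in KO-labelled and 12.3 ± 1.01 CPM in WT-labelled libraries, a log2 fold change of -0.57 ± 0.098 (SE; edgeR adjusted p = 0.000181). Foxp4 was at 46.1 ± 1.92 CPM in KO-labelled and 41.5 ± 2.34 CPM in WT-labelled libraries, at the edge of the threshold (edgeR adjusted p = 0.0499). The Foxp4 call was lost in 9 of 18 alternatives, among them without KO replicate 2, KO replicate 3, WT replicate 1 or WT replicate 3 (adjusted p = 0.178, 0.0521, 0.164 and 0.192). Mybl2, a MYB relative of dividing cells, was at 97.1 ± 2.71 and 91.0 ± 3.00 CPM, Mybl1 at 10.99 ± 0.208 and 12.7 ± 0.905 CPM and Foxo4 at 20.9 ± 1.97 and 20.0 ± 1.67 CPM in KO-labelled and WT-labelled libraries (SD, n = 3 each), and none of the 3 passed (edgeR adjusted p = 0.106, 0.128 and 0.665). Tcf7l1, Tcf7l2 and Bcl6b were under the count filter, with at most 10 counts in any library.

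Other signals moved with the factors. Of immediate early and dissociation stress genes, 13 of 21 were lower and 3 higher, with a median log2 fold change of -0.24. In this list 76.2% were called, beside 17.3% of all tested genes. Egr1 was at 358 ± 3.86 CPM in KO-labelled and 711 ± 14.8 CPM in WT-labelled libraries, and Ier2 and Zfp36 were at -0.64 and -0.47. The next genes were chosen after their values were seen. Dusp1, Dusp2 and Nfkbia were the 3 higher ones, at 0.51, 0.37 and 0.35. The heat shock genes Hsp90aa1 and Dnajb1 were not called (edgeR adjusted p = 0.589 and 0.750). The 5 αβ T cell markers with a row summed to 135 to 138 CPM in KO-labelled and 113 to 115 CPM in WT-labelled libraries, with Cd8a and Cd5 higher, Foxp3 lower and Cd4 at 10 to 26 counts. Cd8b1 averaged 17.8 CPM in KO-labelled and 18.1 CPM in WT-labelled libraries and was not called (edgeR adjusted p = 0.884). The 7 NK and innate lymphoid markers summed to 622 to 638 CPM in KO-labelled and 451 to 457 CPM in WT-labelled libraries, mostly Eomes, with Ncr1 and Fcer1g lower. Monocyte and macrophage markers summed to 21.7 to 24.2 CPM in KO-labelled and 26.1 to 30.0 CPM in WT-labelled libraries, with Adgre1, Csf1r, Cd14 and Lyz2 at 0 to 14 counts. Of these markers Cd68 and Itgam were called lower, at 208 to 234 and 10 to 39 counts in KO-labelled and 253 to 326 and 41 to 63 counts in WT-labelled libraries (log2 fold changes -0.43 and -1.29, edgeR adjusted p = 0.0179 and 0.0242). Dendritic cell markers summed to 8.41 to 9.47 CPM in KO-labelled and 11.9 to 12.8 CPM in WT-labelled libraries, with Batf3 lower. Batf3 alone averaged 4.24 CPM in KO-labelled and 8.07 CPM in WT-labelled libraries. Zbtb46, Xcr1 and H2-Ab1 were at log2 fold changes of 0.40, 1.43 and -0.20 and were not called (edgeR adjusted p = 0.555, 0.0834 and 0.561). Plasma cell, neutrophil and erythroid markers each summed to at most 1.59 CPM. The part of these signals in the changes of the factors was not tested.

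Levels of different factors can be compared only per length, and the order depended on the length used. The annotation behind the counts is not given, so which length suits them is not known. In CPM per kilobase of exons annotated in GENCODE M21 (GRCm38), Tcf7 led in both labels, with 62.2 ± 1.33 in KO-labelled and 77.6 ± 0.705 in WT-labelled libraries, above 94.9% of the 11834 tested genes with such a length in WT-labelled ones. Foxp1 followed at 12.6 ± 0.423 and 11.5 ± 0.0971, then Foxo1 at 10.8 to 11.4 and 10.05 to 10.5 (ranges), and Satb1 at 9.58 ± 0.304 and 7.87 ± 0.150, each in KO-labelled and then WT-labelled libraries. Myb came next at 5.51 ± 0.453 and 5.11 ± 0.113, then Foxo3 at 3.33 ± 0.196 and 4.65 ± 0.157. Bcl6 was lowest at 0.513 ± 0.0503 and 0.472 ± 0.128. Bach2 and Lef1 changed places on this scale: KO-labelled libraries held 2.35 ± 0.141 of Bach2 and 1.93 ± 0.0264 of Lef1, and WT-labelled ones 2.01 ± 0.123 of Bach2 and 3.11 ± 0.336 of Lef1 (SD, n = 3 each throughout). No neighbours in the WT-labelled order overlapped in range.

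The deposited FPKM gave another order, because their lengths differ: 57622 bp for Bach2, 32491 bp for Foxp1 and 12697 bp for Tcf7, which are 5.80, 2.36 and 4.84 times the annotated exon length, where the median tested gene had 0.884 times. On this scale Foxo1 was at 17.2 ± 0.569 FPKM in KO-labelled and 16.0 ± 0.361 FPKM in WT-labelled libraries, and Tcf7 at 12.9 ± 0.241 and 16.0 ± 0.103 FPKM in the same order, so that these genes overlapped in WT-labelled libraries. Bach2 was lowest, at 0.406 ± 0.0249 FPKM in KO-labelled and 0.345 ± 0.0219 FPKM in WT-labelled libraries (SD, n = 3 each). Fold changes from counts for the same gene do not depend on the length. Those on log2 FPKM with a pseudocount do, since the pseudocount weighs more where the FPKM is low. For Bach2 the log2 fold change was 0.23 from counts and 0.064 in the unfiltered fit on log2(FPKM + 1).

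The tested genes whose log2 CPM followed a factor most closely over the 6 libraries, among 8430 genes of at least 10 CPM, are given as a description. For Tcf7 this was Epsti1 (Pearson r = 0.999), for Lef1 Msmo1 (r = 0.999), for Foxo3 Gm614 (r = 0.997) and for Satb1 Smyd5 (r = 0.999). For Bach2, Foxp1, Foxo1, Bcl6 and Myb these were Ddx10 (r = 0.995), Tes (r = 0.994), Armcx2 (r = 0.993), Wdr48 (r = 0.998) and Chic2 (r = 0.993). With 6 libraries in 2 groups, 510 genes had r above 0.95 with Tcf7, 421 with Foxo3 and 317 with Lef1, but only 8 with Bcl6 and 11 with Myb.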

How the data were processed

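Per the submitters' processing notes, the tools were fastp, HISAT2 and HTSeq, with the build GRCm39. Not given in the sources used here are versions, settings, annotation and use of strand. Without strand, reads of a gene and its antisense partner cannot be told apart. Per the labels' protocols, cells were lysed in TRIzol and a VAHTS Universal V6 kit was used for the libraries. The deposited counts are whole numbers per gene symbol. The deposited FPKM equal these counts over the column total and 1 fixed length per gene for all 19390 genes (tolerance 0.01 bp).

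The test on counts was that of edgeR 4.0.16 under R 4.3.3 (filterByExpr, TMM factors, glmQLFit and glmQLFTest on the label, Benjamini-Hochberg over 12810 genes). The filter left out 0.0366% of counts, and the biological coefficient of variation was 4.16%. A standard error is the size of the log2 change divided by the root of its F statistic, and intervals are 95% quasi-likelihood intervals. Ratios were compared by exact permutation (scipy 1.17.1). The script was tested on simulated counts.

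The factors, gene lists and tests were chosen with earlier results of these data known. From each list the text names up to 3 called genes in order of p, or 1 gene if none passed, and all tested relatives; some of these genes are not reported here. For Bach2os, exon lengths and overlaps, GENCODE M21 (GRCm38) was used, and promoters came from RefSeq GRCm38.p6. As alternatives, scaling was by RLE, upper quartile or total counts, with other filters, a robust fit, DESeq2 1.42.0, limma 3.58.1 (voom, and trend on log2 FPKM, adding 1 or 0.1), the replicate number as a block, and each library left out.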

Additional observations from a re-analysis of the deposited data

How the results depend on the processing

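Tcf7, Lef1, Foxo3 and Satb1 kept their direction and call in all 18 alternatives, with log2 fold changes from -0.33 to -0.29, -0.77 to -0.55, -0.51 to -0.38 and 0.26 to 0.31. Foxo1 and Myb stayed uncalled with the same sign in all 18, and Bcl6 in the 16 that tested it, with a change of sign (-0.08) without WT replicate 1. The 3 lower factors were called in every alternative. The number of higher factors was 1 in each of the 3 limma-trend fits on log2 FPKM and ran from 2 to 3 with a library left out. Bach2 had a mean under 1 FPKM and so was not tested in the filtered FPKM fits, and its call with a pseudocount of 1 and no filter had an adjusted p of 0.237. The cause of the lost Foxp1 call was not tested. Over all genes, the unfiltered FPKM fit called 563 higher and 730 lower, against 926 and 1293. Leaving out a library gave 666 to 1000 higher and 994 to 1330 lower. The difference in log2 Bach2/Bach1, 0.081, was -0.069 as a ratio of FPKM + 1 and -0.0042 to 0.157 with a library left out. The ratios Lef1/Tcf7, Foxo3/Foxo1, Bcl6/Prdm1 and Tcf7/Tbx21 kept their direction. Same-numbered libraries did not deviate together (r of deviations -0.13 to -0.03 over 8438 genes, and -0.07 to 0.11 for differently numbered ones). From 3 libraries per label, this cannot show whether a shared number stands for a shared batch. With the replicate block, 3 factors were higher and 3 lower, and all genes gave 792 higher and 1177 lower. Of 37 other genes chosen by the naming rule, 30 kept their side of the threshold in every alternative that tested them (Rora, Tle1 and Tle2 were tested in 16 of 18), and no called gene changed sign. Foxo4, not called, changed sign without KO replicate 3 (-0.015) and without WT replicate 3. Of 24 list counts 13 kept close to their value. For Bcl6, the spread between WT-labelled libraries exceeded counting error.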

Other observations

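The lengths behind the deposited FPKM exceeded 3 times the annotated exon length in 2.75% of the 11834 tested genes with both lengths, Bach2 and Tcf7 among them. Since the annotation behind the counts is not given, the right length for these genes is not known. Their levels, in FPKM or in CPM per kilobase, therefore cannot be set safely against those of other genes.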
